A study of Rattus norvegicus with 4 samples.

Results

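Heat shock and cold-inducible genes were followed through cold jet, in which ice-cold buffer is squirted over a culture to wash neurons off the astrocytes below, to ask whether the procedure itself leaves a temperature or handling response in the RNA. The 10 genes were the cold-inducible RNA-binding proteins Cirbp and Rbm3, the Hsp70 family members Hspa1a, Hspa1b, Hspa8 and Hspa5, their relative Hsph1, the co-chaperone Dnajb1, the small heat shock protein Hspb1 and the mitochondrial chaperonin Hspd1. Their probes were found on the array by gene name or by RefSeq transcript, without use of any measured value, and came to 18 of 41012 probes. The only probe of Hspa1b was not well above background in any of the 8 channels, so 9 of the 10 genes were tested, among 21361 genes in all.

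The study used 4 arrays, each hybridized with 2 RNAs. Astrocytes came from the cortex of Wistar rats at postnatal day 1 and were kept at 37 °C, alone or under hippocampal neurons of mouse embryos at embryonic day 18. CC-CJ is RNA of such co-cultures after cold jet, CC is RNA of co-cultures without cold jet, and AA-CJ is RNA of astrocytes that grew alone and also received cold jet. Cold jet took seconds per well on ice, as the study describes it, and the astrocytes were then harvested. No rewarming step is described. A change of mRNA that needs longer than this could not appear in these samples. The CC-CJ RNA always carried the dye Cy3, against AA-CJ in Cy5 on 2 arrays and CC in Cy5 on the others. No array had the dyes exchanged, so RNA and dye cannot be told apart within an array, while CC and AA-CJ were both in Cy5 and a constant dye effect cancels between them. Astrocytes alone without cold jet were not among the RNAs, and CC contains mouse neuron RNA read by rat probes. By the study's methods, each RNA was pooled from several wells, and the replicates came from different pools of animals. The methods name 2 CC-CJ samples and do not say whether the arrays with CC carried the same 2. The 4 CC-CJ values of a gene may thus be repeats of 2 RNAs rather than 4 independent samples.

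Heat shock proteins are chaperones that bind unfolded proteins. Their genes are switched on by heat shock factor 1, which binds inverted repeats of a short pentamer in their promoters, whereas Hspa5 (BiP), the chaperone of the endoplasmic reticulum (ER), is switched on by factors of the unfolded protein response at another element. Cirbp and Rbm3 are RNA-binding proteins whose mRNA rises under mild cooling, and chaperones can rise on rewarming after cold. Rat promoter sequence was taken from RefSeq (GRCr8) for the 9 of 10 genes that the table holds, and the 250 bases before the annotated start were searched on both strands. The stretches below, of up to 67 bases, are shown because they carry, in capitals, the elements at which heat shock factor 1 or the unfolded protein response acts on such genes, and each is written along the strand of its gene.
Hspa8, chr8:50080277-50080337: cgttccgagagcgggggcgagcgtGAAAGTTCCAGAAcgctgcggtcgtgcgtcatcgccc
Hspa8, chr8:50080435-50080495: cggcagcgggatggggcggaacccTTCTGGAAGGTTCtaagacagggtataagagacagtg
Hsph1, chr12:10427308-10427367: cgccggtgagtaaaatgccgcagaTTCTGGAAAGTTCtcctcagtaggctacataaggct
Hspd1, chr9:64084238-64084287, minus strand: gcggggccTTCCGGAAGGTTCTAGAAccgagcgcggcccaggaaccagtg
Hspa5, chr3:38452949-38453015: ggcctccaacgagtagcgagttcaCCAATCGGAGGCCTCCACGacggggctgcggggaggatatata
The first 4 stretches hold a heat shock element of 3 units (GAANNTTCNNGAA, or TTCNNGAANNTTC on the other strand), which was present in 3 of the 9 genes and in 0.663% of 33469 rat promoter windows. In Hspd1 the capitals cover 2 overlapping copies. The 2-unit form that the longer one contains (GAANNTTC or TTCNNGAA) was present in 5 of the 9, with Hspb1 and Dnajb1 added, and in 13.5% of windows. The last stretch holds the ER stress response element of Hspa5 (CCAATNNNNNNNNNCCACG), present in 0.0657% of windows. The windows of Cirbp, Rbm3 and Hspa1a held none of these letters. Only exact matches were searched for, so an element with an altered unit, or further from the start, would be missed. In the stretches, the elements begin 213 and 55 bases before the start of Hspa8, 36 before that of Hsph1, 242 before that of Hspd1 and 43 before that of Hspa5.

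No heat shock or cold-inducible gene reached significance (adjusted p below 0.05) in any of the 3 comparisons, so that 0 of 9 passed in each (limma, Benjamini-Hochberg over 21361 genes). With harvest right after the jet, these counts cannot speak to a response that takes longer to build up. In CC-CJ versus CC, the comparison with and without cold jet, 2.36% of all genes passed, 21 of them higher and 484 lower in CC-CJ. In CC-CJ versus AA-CJ, where both RNAs had cold jet, 3.1% passed. In CC versus AA-CJ 2.66% passed. Before adjustment, p was under 0.05 for 4 of the 9 genes in CC-CJ versus CC (17% of all genes), for 3 of 9 in CC-CJ versus AA-CJ (22.6% of all genes) and for 2 of 9 in CC versus AA-CJ (17.8% of all genes). The median log2 difference of the 9 genes was -0.12 in CC-CJ versus CC, beside -0.02 over all genes. Hspb1 alone had a positive value there. The other 8 genes were below 0 on both arrays of CC-CJ versus CC, as were 38.3% of all genes, but both figures followed the normalization. The count was 3 (28.6% of all genes) with local regression on intensity and location and 4 (27.9%) in the authors' own values. It was 5 (36.2%) with a smaller background offset and 9 (45%) with median centring relative to the median gene.

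**Figure D1:**
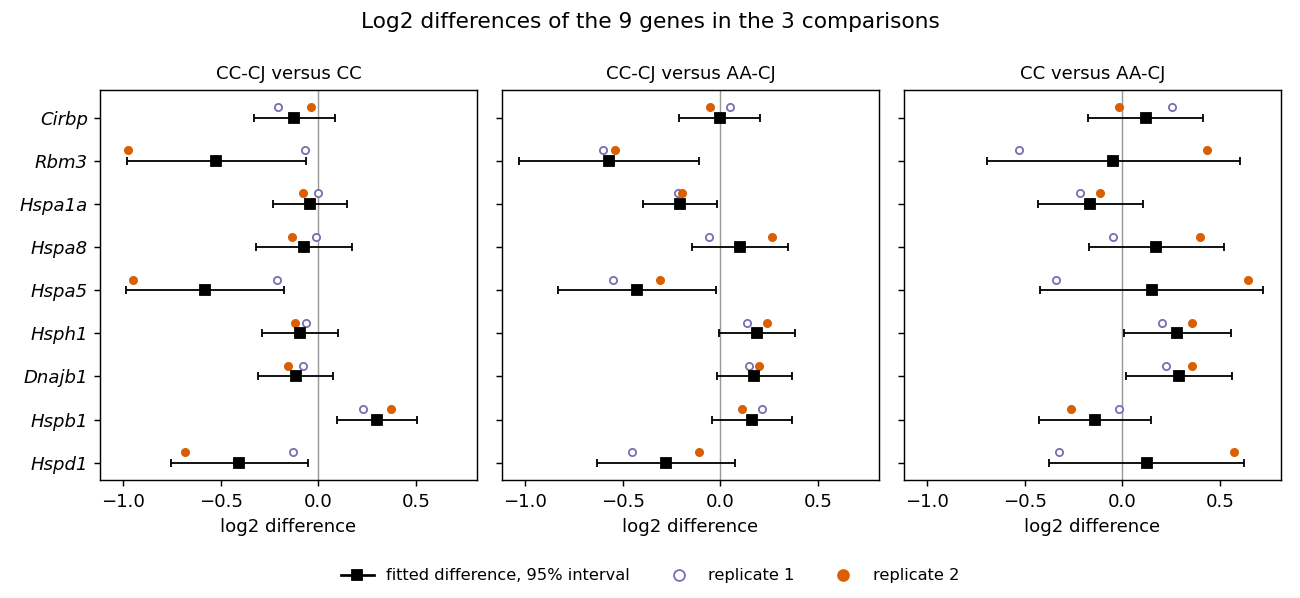
Log2 differences (x axis) of the 9 genes in the 3 comparisons, with squares and bars for the fitted value and its 95% interval and circles for the 2 replicates; in CC versus AA-CJ a circle sets same-numbered arrays against each other. Rbm3, Hspa5 and Hspd1 lie left of 0 against both partners of CC-CJ and have intervals across 0 in CC versus AA-CJ, and Hspb1 lies to the right of 0 in CC-CJ versus CC.

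Cirbp, which stabilizes mRNAs in cooled cells, showed the smaller differences of the 2 cold-inducible genes in both comparisons with CC-CJ and was read by 1 probe (chr7:11047616-11047675, minus strand, of the rn4 assembly that the scanner files use; here and below, whether a probe lies in coding sequence was not determined). Its normalized level (log2 intensity, comparable between samples for 1 gene but not between genes) in CC-CJ was 9.81, 9.76, 9.80 and 9.67 on the 4 arrays, against 10.01 and 9.70 in CC and 9.76 and 9.81 in AA-CJ. The 3 groups overlapped. In CC-CJ versus CC it differed by -0.12 on the log2 scale (-0.21 and -0.04 on the 2 arrays, 95% interval -0.33 to 0.08, limma adjusted p = 0.516). In CC-CJ versus AA-CJ the value was -0.00 (95% interval -0.21 to 0.20, limma adjusted p = 0.99), and its sign there turned with the background offset and the source of the values.

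Rbm3, which promotes translation in the cold, had 1 probe (chrX:26380381-26380440) and was lower in CC-CJ than in every sample of the other groups. Its level in CC-CJ was 9.06, 8.98, 9.07 and 8.98. CC gave 9.14 and 9.96, and AA-CJ gave 9.66 and 9.52. The 4 CC-CJ values lay close together, with an SD of 0.05, while the CC replicates were far apart, with an SD of 0.58 (n = 2). If the CC-CJ values are repeats of 2 RNAs, their SD is not a spread over 4 independent RNAs. The log2 difference was -0.52 in CC-CJ versus CC (-0.07 and -0.98 on the 2 arrays, 95% interval -0.98 to -0.06, limma adjusted p = 0.246), a ratio of 0.696. A larger gap between the 2 arrays was seen in 0.496% of genes. In CC-CJ versus AA-CJ the difference was -0.57 and the arrays were alike (-0.60 and -0.54, limma adjusted p = 0.148). CC and AA-CJ, both in Cy5, differed by -0.05 with a 95% interval of -0.69 to 0.60. Without replicate 1 of CC-CJ versus CC, the log2 difference from CC was -0.98, and without replicate 2 it was -0.07. Each of these rests on 1 array, and the spread in such fits came from the 2 arrays of CC-CJ versus AA-CJ alone.

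**Figure D2:**
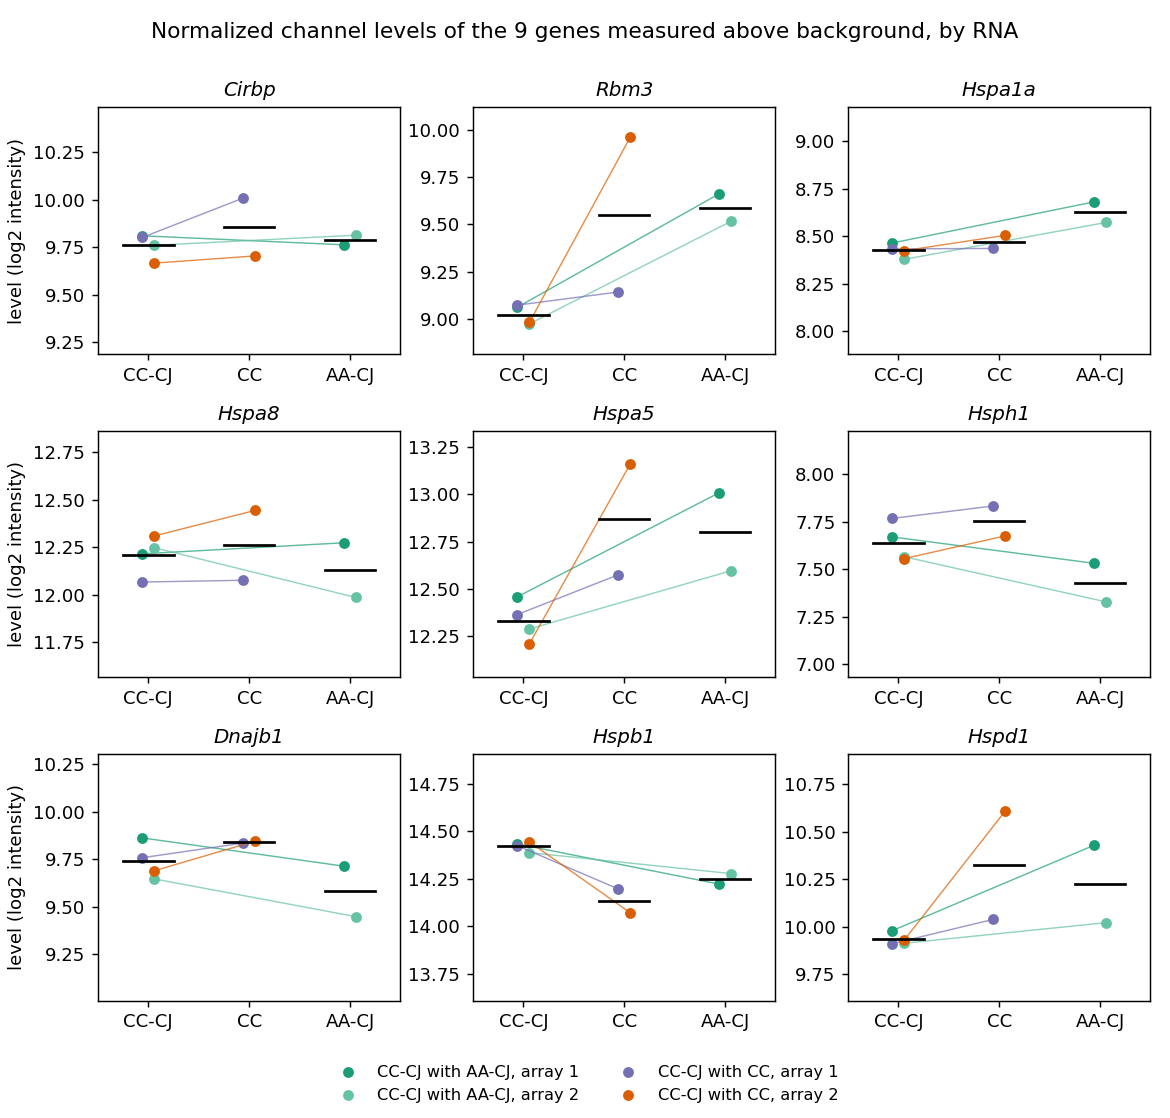
Normalized level (y axis, log2 intensity, the same span of 1.3 in each panel) of the 9 genes in CC-CJ, CC and AA-CJ; points joined by a line come from 1 array, and black bars are group means. In Rbm3, Hspa5 and Hspd1 the 4 CC-CJ values sit below all samples of CC and AA-CJ, and the second CC sample (orange) is the highest, whereas in Hspb1 the CC-CJ values are on top.

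Of the Hsp70 family, Hspa1a is the heat-inducible form and Hspa8 the constitutive one. Hspa1a was read by 2 probes (chr20:3956838-3956897 and chr20:3957864-3957923). Its level in CC-CJ was 8.46, 8.38, 8.43 and 8.42, in CC 8.44 and 8.50, and in AA-CJ 8.68 and 8.57. CC-CJ overlapped with CC and lay below AA-CJ. CC-CJ versus CC gave a log2 difference of -0.04 (-0.00 and -0.08 on the 2 arrays, 95% interval -0.23 to 0.15, limma adjusted p = 0.833), and its sign turned under 3 other normalizations. The upper end of that interval is a rise of 0.15 on the log2 scale. The dimmer probe (chr20:3956838-3956897) had a Cy3 signal of only 48 to 65 above background, and both probes counted equally. Against AA-CJ the difference was -0.21 (-0.22 and -0.19, limma adjusted p = 0.193). Its neighbour Hspa1b is nearly identical in sequence, so RNA of one may be read by probes of the other. The Hspa1b probe gave -0.12 and 0.14 on the 2 arrays of CC-CJ versus CC, at signals not well above background.

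Hspa8, read by 4 probes between 43785276 and 43787527 on chromosome 8, varied between arrays more than between groups. Its level in CC-CJ was 12.21, 12.25, 12.07 and 12.31, in CC 12.08 and 12.44, and in AA-CJ 12.27 and 11.98. All 3 groups overlapped. The log2 difference was -0.07 in CC-CJ versus CC (95% interval -0.32 to 0.17, limma adjusted p = 0.763) and 0.10 in CC-CJ versus AA-CJ (-0.06 and 0.26 on the 2 arrays, limma adjusted p = 0.607).

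Hspa5, the ER chaperone that carries the ER stress response element, had the largest difference of the 9 in CC-CJ versus CC, with 1 probe (chr3:13787739-13787798). Its level in CC-CJ was 12.46, 12.29, 12.37 and 12.21, in CC 12.58 and 13.16, and in AA-CJ 13.01 and 12.60. As for Rbm3, every CC-CJ value was below every value of both other groups, and the second CC sample was the highest of all. Against CC the log2 difference was -0.58 (-0.21 and -0.95 on the 2 arrays, 95% interval -0.98 to -0.18, limma adjusted p = 0.168), with 97.9% of genes above it. Against AA-CJ it was -0.43 (-0.55 and -0.31, limma adjusted p = 0.2). CC versus AA-CJ gave 0.15 with a 95% interval of -0.42 to 0.72. Without replicate 1 of CC-CJ versus CC the difference from CC was -0.95, and without replicate 2 it was -0.21, each from 1 array. Over the 4 log ratios, the named genes with the pattern closest to Hspa5 were Lonp1 (Euclidean distance 0.10), a mitochondrial protease, then Faim (0.21) and Fibin (0.22). These distances are a description and were not tested.

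Hsph1, an Hsp110 that exchanges nucleotides on Hsp70, and Dnajb1, the Hsp40 that works with the inducible Hsp70, moved little with cold jet in co-cultures. Hsph1, with 1 probe (chr12:5809732-5809791), was at 7.67, 7.57, 7.77 and 7.56 in CC-CJ, at 7.83 and 7.68 in CC and at 7.53 and 7.33 in AA-CJ. Its Cy3 signal was low, at 70 to 82 above background. Dnajb1, with 2 probes (chr19:26214035-26214094 and chr19:26214630-26214689, minus strand), was at 9.86, 9.65, 9.76 and 9.69 in CC-CJ, at 9.83 and 9.84 in CC and at 9.71 and 9.45 in AA-CJ. For both, CC lay above AA-CJ without overlap, as it did or the reverse for 56.8% of all genes. Their log2 differences in CC-CJ versus CC were -0.09 (limma adjusted p = 0.604) and -0.12 (limma adjusted p = 0.503). In CC versus AA-CJ they were 0.28 (limma adjusted p = 0.271) and 0.29 (limma adjusted p = 0.252), positive for both pairs of arrays but short of the threshold.

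Hspb1 (Hsp27), a small heat shock protein found in reactive astrocytes, was the gene with a positive value in CC-CJ versus CC, from 1 probe whose match covers chr12:21911494-21911664 on the minus strand. Its level in CC-CJ was 14.43, 14.39, 14.42 and 14.44, in CC 14.20 and 14.07, and in AA-CJ 14.22 and 14.28. Every CC-CJ value exceeded every value of CC and of AA-CJ. Hspb1 thus had a log2 difference of 0.30 in CC-CJ versus CC (0.23 and 0.37 on the 2 arrays, 95% interval 0.10 to 0.50, limma adjusted p = 0.157), or 1.23-fold. In CC-CJ versus AA-CJ it was 0.16 (0.21 and 0.11, limma adjusted p = 0.318). CC versus AA-CJ gave -0.14 (95% interval -0.43 to 0.15). The probe was printed 10 times on each array, and the SD of its log ratio among those spots was 0.02 on each, so that spot noise was small beside the gap of 0.15 between the 2 arrays. With median centring in place of loess the Hspb1 difference from CC turned to -1.10, and it was -0.51 relative to the median gene.

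Hspd1 (Hsp60) folds proteins in mitochondria. Its level in CC-CJ was 9.98, 9.91, 9.91 and 9.93, in CC 10.04 and 10.61, and in AA-CJ 10.43 and 10.02. CC-CJ was below both other groups, and again the second CC sample was the highest. The log2 difference was -0.40 in CC-CJ versus CC (-0.13 and -0.68 on the 2 arrays, 95% interval -0.76 to -0.05, limma adjusted p = 0.245) and -0.28 in CC-CJ versus AA-CJ (-0.45 and -0.11, limma adjusted p = 0.317). CC versus AA-CJ gave 0.12, with same-numbered arrays on opposite sides of 0 (-0.32 and 0.57).

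CC-CJ, the RNA always in Cy3, was thus below all other samples in Rbm3, Hspa5 and Hspd1 and above them in Hspb1. Levels of CC-CJ did not overlap with those of CC in these 4 genes of 9, beside 32.8% of all genes, and with those of AA-CJ in 6 of 9, beside 39.5%. Both counts treat the 4 CC-CJ values as separate, though they may be repeats of 2 RNAs. For these 4, RNA and dye cannot be told apart in the position of CC-CJ; between the 2 Cy5 RNAs none of the 4 passed. The gaps between the 2 arrays of CC-CJ versus CC were 0.91 for Rbm3, 0.74 for Hspa5 and 0.55 for Hspd1, and from 0.05 to 0.17 for the other 6 genes, beside a median of 0.13 over all genes.

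**Figure D3:**
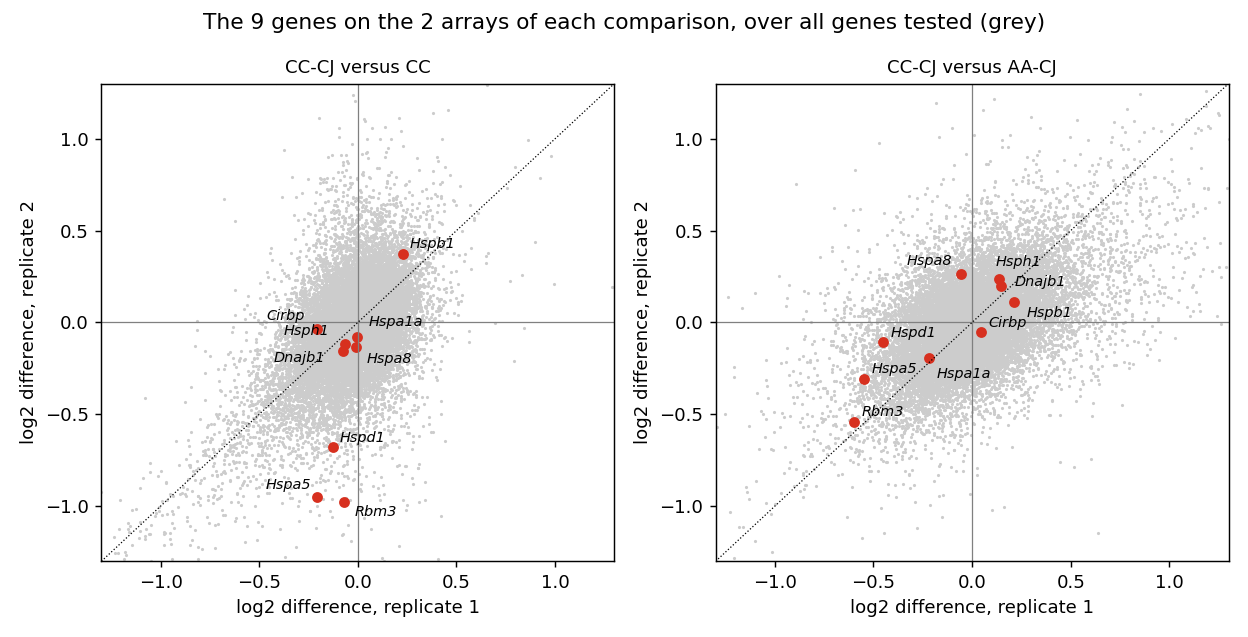
Log2 difference on replicate 1 (x axis) against replicate 2 (y axis) for the 9 genes (red) and all genes tested (grey; values beyond 1.3 in size are not drawn), with the dotted line marking equal values. Rbm3, Hspa5 and Hspd1 fall far below the line in CC-CJ versus CC, and 6 genes lie near the centre or, as Hspb1, near the line.

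Genes with several probes gave a check within the array. The 4 probes of Hspd1 lie between 53884193 and 53885020 on chromosome 9 of rn4. On replicate 2 of CC-CJ versus CC they gave -0.91, -0.93, -0.28 and -0.60, all in the same direction but of unequal size. On replicate 1 of CC-CJ versus AA-CJ, 3 of them gave -0.55 to -0.61 and A_44_P535742 gave -0.04. That probe and A_44_P846589 are also annotated to a second, predicted transcript, and without both the Hspd1 difference from CC was -0.49 (limma adjusted p = 0.285). The probes of Hspa8 spread from -0.30 to 0.08 on replicate 2 of CC-CJ versus CC. The 2 probes of Dnajb1 disagreed in sign there, at -0.45 and 0.13, and so did those of Hspa1a, at 0.09 (mean of 10 spots) and -0.26. When single probes were tested, none of these 17 passed in any comparison.

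**Figure D4:**
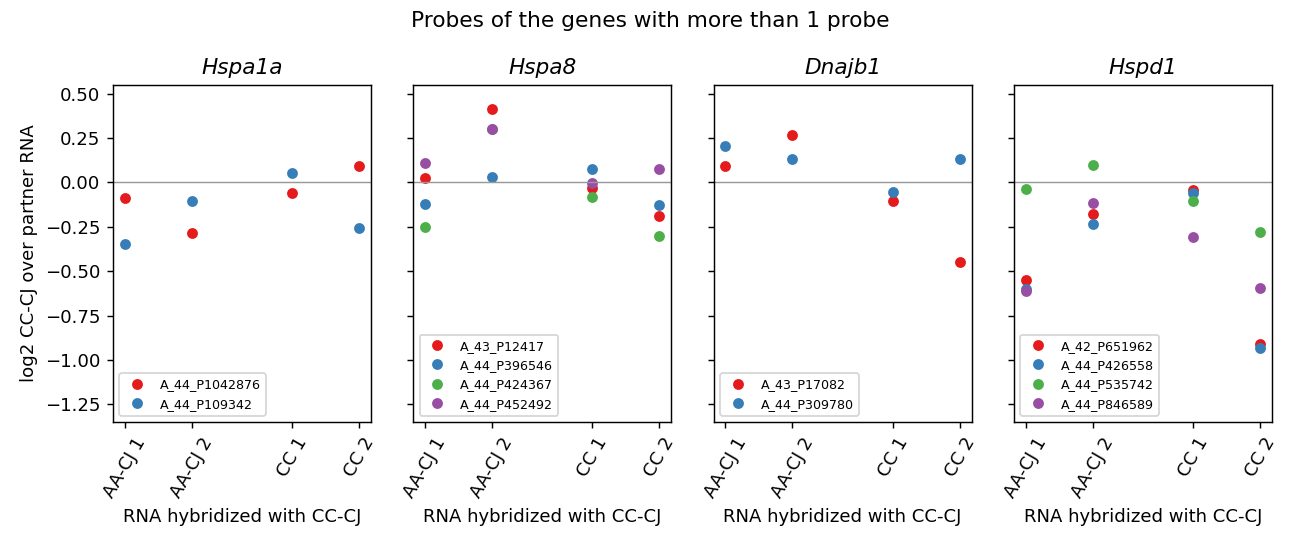
Log2 ratio of CC-CJ over its partner RNA (y axis) on each of the 4 arrays (x axis) for every probe of Hspa1a, Hspa8, Dnajb1 and Hspd1 above background, 1 colour a probe. The Hspd1 probes fall together on the second CC array, with A_44_P535742 nearest 0, while probes of the other 3 genes lie on both sides of 0 there.

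Beside the 9 genes stood a wider set of chaperone, ER stress and handling genes, of which 168 of 187 (cell type markers and the genes above included) had a probe and 153 were tested. Beside 2.36% of all genes, a single gene outside the marker lists passed in CC-CJ versus CC. This was Fos, an immediate early transcription factor that is induced within minutes by many stimuli. Its level was 8.59, 8.19, 8.50 and 8.18 in CC-CJ, 7.58 and 7.39 in CC and 7.43 and 7.35 in AA-CJ, so that CC-CJ stood clear of both. Fos was higher in CC-CJ by 0.85 on the log2 scale than in CC (0.92 and 0.78, limma adjusted p = 0.00855). Over AA-CJ, which had received cold jet too, it was higher by 1.00 (limma adjusted p = 0.00955). CC and AA-CJ differed by 0.15 (limma adjusted p = 0.64). As for Hspb1, RNA and dye cannot be told apart in this position of CC-CJ. Under median centring the Fos value was 0.11 and did not pass, although it was 0.70 relative to the median gene.

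Of 19 immediate early genes tested in CC-CJ versus CC, Fos rose, 18 did not pass, and the median was 0.20. Before adjustment, p was under 0.05 for 9 of the 19 (limma, 17% of all genes), and of these only Klf4 (-0.31) was lower. In all, 11 were above 0 and 8 below. RNA and dye cannot be told apart here either. Egr1, another growth-response factor, was at 0.66 (0.21 and 1.11 by array, limma adjusted p = 0.179) there and rose by 1.21 over AA-CJ (limma adjusted p = 0.0345). Both RNAs of that last comparison had cold jet.

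The chaperone lists had no gene that passed in CC-CJ versus CC. The 9 chaperonin genes, which include Hspd1's partner Hspe1, were all below 0, with a median of -0.18 and a range of -0.36 to -0.06. The 19 ER stress genes, Hspa5 among them, had a median of -0.16, with 15 below 0. They ranged from -0.62 in the disulphide isomerase Pdia3 to 0.28 in Pdia4. Both extremes came mostly from replicate 2 (-0.08 and -1.16 by array for Pdia3, -0.06 and 0.62 for Pdia4). The 11 genes of Hsp90 and its co-chaperones had a median of -0.18 and 10 below 0. Over all genes, 12020 of 21361 (56.3%) were below 0. The 3 counts followed the normalization and fell to 7, 14 and 6 in the authors' values, where 44.4% of all genes were below 0, while the 3 medians stayed below 0 under each normalization tried. The 8 relatives of Hsp70 and Hsp110 were close to 0, between -0.10 and 0.00. The 4 heat shock factors and regulators had a median of 0.11, with Hsf1 at 0.28 (limma adjusted p = 0.277). The 4 cold shock domain genes had a median of 0.04, and Carhsp1 was the highest at 0.45 (limma adjusted p = 0.0548). The 7 RNA-binding relatives of Cirbp and Rbm3 had a median of 0.01. The remaining medians were -0.06 for 13 Hsp40 relatives, -0.07 for 5 small heat shock proteins, 0.02 for 6 nucleotide exchange factors and -0.13 for 7 mitochondrial folding genes.

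In CC versus AA-CJ 2 chaperone genes passed, 1 of 11 in the Hsp90 list and 1 of 13 Hsp40 relatives. Over all genes 2.66% passed in that comparison. Hsp90aa1, the inducible cytosolic Hsp90, was at 11.69 and 11.80 in CC, at 10.77 and 10.94 in AA-CJ and between them in CC-CJ, at 11.34, 11.41, 11.32 and 11.38. It was higher in CC by 0.91 on the log2 scale (limma adjusted p = 0.0111). Dnaja2, an Hsp40, was higher in CC by 0.69 (limma adjusted p = 0.0387). Both also passed in CC-CJ versus AA-CJ, at 0.52 (limma adjusted p = 0.0301) and 0.82 (limma adjusted p = 0.01), which shares the AA-CJ samples. The call of Dnaja2 in CC versus AA-CJ was lost in the authors' values (0.55, limma adjusted p = 0.103), with an offset of 16 (limma adjusted p = 0.0934), with median centring (limma adjusted p = 0.0657), with the replicate block (limma adjusted p = 0.0976), with probes above background in every channel (limma adjusted p = 0.0513) and with any 1 array left out (limma adjusted p from 0.0744 to 0.112). With Agilent's log ratio the calls of both genes in CC versus AA-CJ were lost (limma adjusted p = 0.138 for Hsp90aa1 and 0.242 for Dnaja2). Median centring gave -0.69 for Hsp90aa1 and -0.33 for Dnaja2 in CC-CJ versus AA-CJ, with the median gene at -0.54 and -0.41 on the 2 arrays. Relative to the median gene they were at -0.21 and 0.15, so that Hsp90aa1 turned and Dnaja2 did not.

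**Figure D5:**
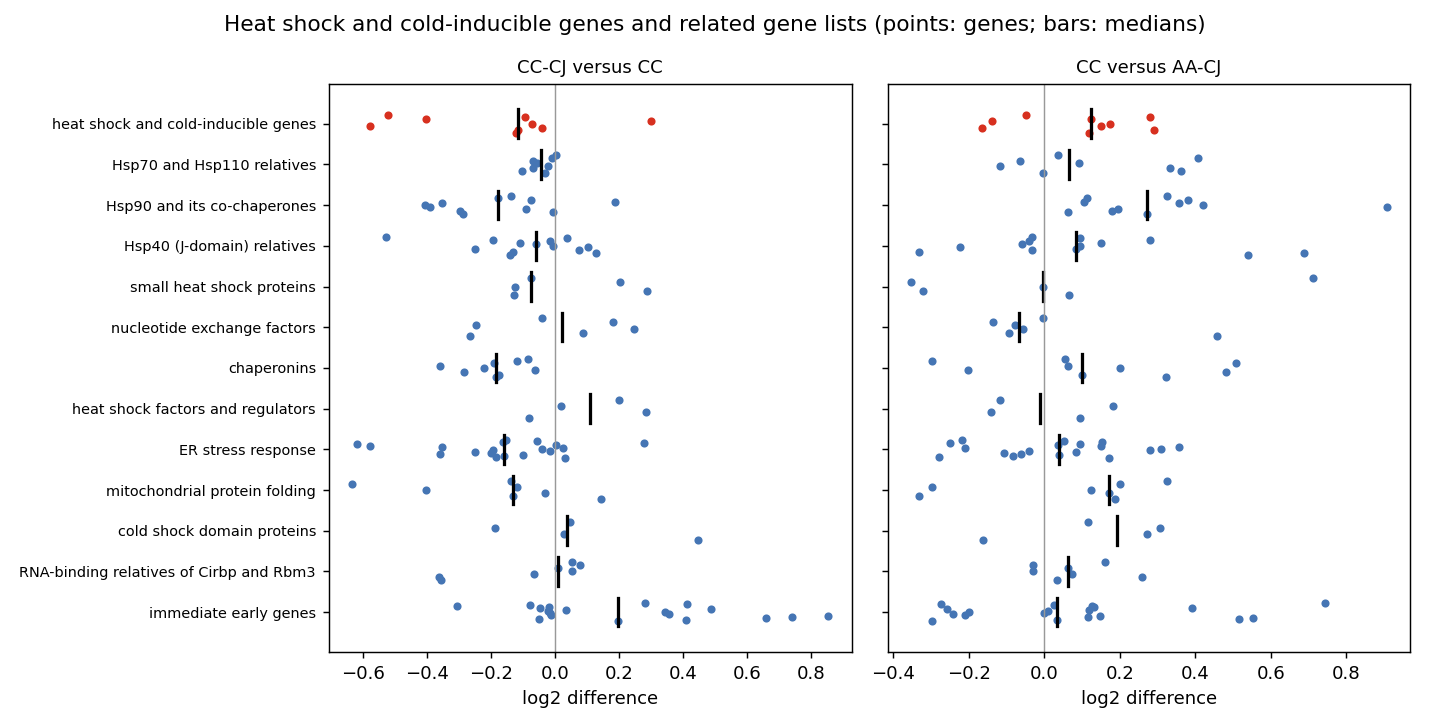
Log2 differences (x axis) of single genes (points) and their medians (bars) for the 9 heat shock and cold-inducible genes (red) and 12 related lists (blue), in CC-CJ versus CC and in CC versus AA-CJ. Immediate early genes reach furthest right in CC-CJ versus CC, where Fos is the highest point, and Hsp90aa1 is the highest point in CC versus AA-CJ.

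The composition of the RNA moved with these comparisons. Of 12 neuron markers measured, 8 passed as lower after cold jet (CC-CJ versus CC), with a median of -1.70, and the summed log2 level of the list ranged from 13.01 to 13.09 in CC-CJ, from 14.26 to 14.32 in CC and from 13.10 to 13.18 in AA-CJ. Microglia markers were lower in 3 of 5, with summed levels of 9.92 to 10.24 in CC-CJ, 10.89 to 10.91 in CC and 9.47 to 9.69 in AA-CJ. No astrocyte marker of 10 passed in CC-CJ versus CC, and their summed levels lay between 15.13 and 15.31 in every sample. Fibroblast or pericyte markers were lower in 2 of 4, Dcn (-0.77) and Col1a2 (-0.59), with summed levels of 14.79 to 14.98 in CC-CJ, 15.21 in both CC samples and 14.97 to 15.05 in AA-CJ. Of 8 oligodendrocyte lineage markers, Sox10 was lower (-1.12), and the summed level was 11.52 to 11.63 in CC-CJ, 11.75 to 12.02 in CC and 11.60 to 11.80 in AA-CJ. No endothelial marker of 3 passed in CC-CJ versus CC. Against AA-CJ, 4 neuron markers, 1 microglia marker, 1 astrocyte marker and the endothelial marker Kdr (2.62) were higher in CC-CJ. The endothelial sum was 9.51 to 9.67 in CC-CJ, 9.67 to 9.69 in CC and 7.98 to 8.20 in AA-CJ. Cdh5 (0.25, limma adjusted p = 0.126) and Vwf (-0.03, limma adjusted p = 0.887) did not pass against AA-CJ, so the endothelial call rests on Kdr alone. In CC versus AA-CJ, 7 neuron, 3 microglia, 1 endothelial (Kdr again) and 1 fibroblast marker were higher in CC. The neuron markers Syp and Rbfox3, the microglia markers Itgam, Ptprc and Cx3cr1, the endothelial markers Pecam1, Cldn5 and Tek, the oligodendrocyte marker Olig2 and the fibroblast marker Lum gave no value. Fewer cells of a type and less RNA per cell cannot be told apart in such samples, and the share that RNA of these other cell types had in the differences of Rbm3, Hspa5, Hspd1, Hspb1, Hsp90aa1, Dnaja2, Fos and the lists was not tested.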

How the data were processed

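Labelled RNA was hybridized to Agilent whole rat genome arrays. The deposited scanner files hold intensity of both dyes per spot, extracted by the authors with Feature Extraction 9.5.1.1, with coordinates of rn4. They also hold Agilent's log10 ratio of Cy5 over Cy3, deposited beside the intensities. The authors' normalized table holds log2 ratios of Cy5 over Cy3, a scale and direction found by comparison with the scanner values, and its columns have medians of 0.0085, 0.0043, -0.025 and -0.014, with their centring not stated; both were used as alternatives. Mean signals were background corrected (normexp, offset 50), normalized by loess (span 0.3) and expressed as log2 of Cy3 over Cy5. A probe was kept (24865 of 41012) where at least 1 of the 3 RNAs gave a signal well above background each time it was hybridized, and kept probes were averaged per gene. One limma model (limma 3.58.1, R 4.3.3; 2 residual degrees of freedom) covered the 4 arrays, with Benjamini-Hochberg adjustment over 21361 genes. Levels were taken after Aquantile scaling. The method was tested on simulated data. Only 2 arrays per comparison limit the precision. All arrays lay on 1 slide. The share of probes well above background lay between 50.1% and 62.6% by channel, and no spot of the 10 genes was saturated.

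The genes and lists were chosen with earlier results of these data known. Named beside the 10 genes are genes of the lists that passed in CC-CJ versus CC or in CC versus AA-CJ, or, had none passed, the extremes of each list, and the 3 nearest patterns to the gene with the largest difference. Egr1, Pdia3, Pdia4, Hsf1, Carhsp1 and Hspe1 were named after their values were seen. Alternatives covered the background correction, the normalization, the source of the values, the probe filter, the prior, single probes, each array left out and the replicate number as a block. Probe sequences were not used here.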

Additional observations from a re-analysis of the deposited data

How the results depend on the processing

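The count of 0 heat shock and cold-inducible genes passing in CC versus AA-CJ held under every alternative run. In CC-CJ versus CC it became 9 with median centring in place of loess, where 14337 of 21361 genes passed. In CC-CJ versus AA-CJ it also became 9, where 13235 genes passed, and all 9 were lower in both. Median centring left the median gene at -0.56 and -0.62 on the CC arrays and at -0.54 and -0.41 on the AA-CJ arrays, so these counts include that shift. In CC-CJ versus AA-CJ the count was 1 with only its 2 arrays in the fit and 1 by the study's rule of 2 SD on both arrays. With 1 array left out the count ranged from 0 to 2 in CC-CJ versus CC and from 0 to 1 in CC-CJ versus AA-CJ, and the passing genes were Rbm3 and Hspa5; where a comparison kept 1 array, that array was assumed to vary like the others. The deviations of same-numbered arrays correlated at -0.112 over 21361 genes. They also carry the CC or AA-CJ partner RNA, so the value cannot decide whether same-numbered arrays share a CC-CJ RNA. CC-CJ levels lay close by number in Egr1 (11.41 and 11.47, then 12.05 and 12.01) and Fos (8.59 and 8.50, then 8.19 and 8.18). They also lay close in Rbm3 (9.06 and 9.07, then 8.98 and 8.98). In Cirbp, Hspa1a, Hspa8, Hspa5, Hsph1 and Dnajb1, too, the CC-CJ levels of replicate 1 did not overlap those of replicate 2. In Hspb1 (14.43 and 14.42, then 14.39 and 14.44) and Hspd1 (9.98 and 9.91, then 9.91 and 9.93) they overlapped. The main fit did not pair the arrays by number, and sharing was not tested. With the replicate block the counts stayed at 0 in all 3 comparisons. Crossing the numbers of the block, an alternative added after seeing the data, gave counts of 1, 0 and 0 for the 9 genes and of 5, 11 and 2 for the related lists.

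Over all genes, 505 passed in CC-CJ versus CC, 662 in CC-CJ versus AA-CJ and 568 in CC versus AA-CJ. Median centring gave 14337, 13235 and 795, and local regression gave 560 and 1100 in the first 2. The related lists, with 1, 4 and 2 genes passing in CC-CJ versus CC, CC-CJ versus AA-CJ and CC versus AA-CJ, moved as follows. CC-CJ versus CC gave 87 with median centring, 3 with local regression on intensity and location and with the authors' values, 2 without background correction, with a robust and trended prior and over single probes, and 1 to 7 with 1 array left out. CC-CJ versus AA-CJ gave 84 with median centring, 8 with local regression, 0 with Agilent's log ratio, 12 with only its 2 arrays, and 2 to 12 with 1 array left out. CC versus AA-CJ gave 1 with median centring, an offset of 16, the authors' values, probes above background in every channel or the replicate block, 0 with Agilent's log ratio, and 1 to 2 with 1 array left out. Fos fell short in CC-CJ versus CC under median centring alone, at 0.11.

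Signs turned in these cases. Median centring gave -1.03 for Dnaja2, -0.55 for Egr1 and -1.10 for Hspb1 in CC-CJ versus CC, and -0.33 for Dnaja2, -0.85 for Dnajb1, -0.028 for Egr1, -0.69 for Hsp90aa1, -1.22 for Hspa8, -1.47 for Hspb1 and -0.35 for Hsph1 in CC-CJ versus AA-CJ. These values include the shift of the median gene. Relative to the median gene, Egr1 stayed positive in CC-CJ versus CC, at 0.043. In CC-CJ versus AA-CJ so did Dnaja2 (0.15), Egr1 (0.45) and Hsph1 (0.13), while the others were negative. In CC-CJ versus CC, Cirbp was at 0.024 with local regression and 0.028 in the authors' values, Hspa1a at 0.027, 0.021 and 0.051 with local regression, Agilent's log ratio and the authors' values, and Hsph1 at 0.048 in the authors' values. In CC-CJ versus AA-CJ, Cirbp was at 0.028 with local regression, 0.019 with an offset of 16, 0.056 with Agilent's log ratio and 0.041 in the authors' values. With 1 array left out, the range in CC-CJ versus AA-CJ was -0.053 to 0.048 for Cirbp and -0.058 to 0.26 for Hspa8, and that in CC versus AA-CJ was -0.011 to 0.31 for Fos, -0.22 to 0.52 for Hspa5, -0.15 to 0.40 for Hspd1 and -0.50 to 0.41 for Rbm3. The cause was not tested. Signal over background limited only Hspa1b among the 10 genes.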
